A study of Mus musculus with 3 samples.

Results

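The cytosolic ribosomal protein genes were followed in the epidermis of mice that lacked cFLIP, TNF or both. Members were all rows whose gene symbol begins with Rpl or Rps followed by a number, or is Rpsa, Rplp0, Rplp1 or Rplp2, with symbols that contain -ps (pseudogenes) and the Rps6k kinases left out. This rule gave 72 of the 24574 named genes, 43 with large subunit symbols and 29 with small subunit symbols. Of these, 60 were genes of core ribosomal proteins, 10 were paralogs or like genes, and 2, Rps19bp1 and Rps23rg1, take their names from a ribosomal protein without encoding one. Rpl6l and Rps4l are annotated as pseudogenes by RefSeq. A further 23 symbols that fit the rule are in the RefSeq table but had no row here, among them Rplp2 and Rpl11, and they were not analysed here.

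Epidermal RNA was measured on 3 Affymetrix Mouse Gene 2.0 ST arrays, 1 per genotype. The genotypes were cFLIP fl/fl K14CreERtam (cFLIP KO), TNF-/- cFLIP fl/fl K14CreERtam (cFLIP KO/TNF KO) and, with no deletion of cFLIP named, TNF-/- (TNF KO). The values are log2 signals from robust multiarray analysis (RMA), 1 value per gene and array. All animals received tamoxifen on epilated back skin, and the time point was 72 h after its first application. In the cFLIP-deficient genotypes the keratin 14 promoter drives the tamoxifen-activated Cre in basal keratinocytes, whereas TNF is absent from all cells of TNF-/- animals. The labels give 3 days of tamoxifen and 4 pooled animals per group, and the methods of the study give 3 to 5 days and 3 to 6 animals. Epidermis had been taken off the dermis by heating. The methods name Cre for both cFLIP-deficient genotypes and not for TNF KO, so cFLIP loss and Cre cannot be told apart in comparisons with TNF KO. Wild-type epidermis is not among the arrays analysed here, so cFLIP KO and TNF KO epidermis differed in both genes. For cFLIP KO/TNF KO the sample title departs from the other labels, and the genotype label was followed. With 1 array per genotype replicate error could not be measured and no test was run, so "higher" and "lower" refer to single arrays.

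The ribosome reads messenger RNA in its small subunit and joins amino acids in its large subunit, and each subunit holds ribosomal RNA and a set of ribosomal proteins that are made in nearly matched amounts. Their mRNAs typically start with a C and a run of pyrimidines, the 5′ terminal oligopyrimidine (TOP) tract, through which mTOR signalling controls their translation. Many ribosomal protein genes also carry small nucleolar RNAs (snoRNAs) in their introns and have left large numbers of processed pseudogenes in the genome. In epidermis, basal keratinocytes divide and translate actively, and suprabasal cells differentiate and finally lose their nuclei.

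The start of the transcript is shown for a few members because it is the sequence feature that the family is known for. RefSeq start-site windows (build GRCm38.p6) were matched by gene identifier for 54 of the 72 members. Where a gene had several windows, the one with the longest tract was kept, for members and for all protein-coding genes alike. A tract was counted when the annotated start base was C and it was followed without a break by C or T, with 5 or more bases in all, on the sense strand only. By this count 9 of 54 members (16.7%) had a tract at the annotated base, against 467 of 17491 protein-coding genes (2.67%). The 9 were Rpl14, Rpl15, Rpl28, Rpl32l, Rpl35a, Rps10, Rps15a, Rps21 and Rps27. A pyrimidine run that begins away from the annotated base was not counted, and no window was matched for Rpl7, Rpl23a or Rpl6l. The 30 bases below run 5′ to 3′ from 10 bases before the start base, with the tract in capitals where there was one.
Rpl15 (chr14:18270967-18270996, minus strand): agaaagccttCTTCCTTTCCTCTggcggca
Rps10 (chr17:27635225-27635254, minus strand): gcgcacgcccCTTCCTTTCCagcctccgcc
Rpl35a (chr16:33056472-33056501, plus strand): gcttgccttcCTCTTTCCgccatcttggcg
Rps21 (chr2:180257369-180257398, plus strand): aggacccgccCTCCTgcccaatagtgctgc
Rps15 (chr10:80292421-80292450, plus strand): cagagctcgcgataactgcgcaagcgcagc
Rps19 (chr7:24884582-24884611, plus strand): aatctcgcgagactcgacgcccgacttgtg
Rps2 (chr17:24720053-24720082, plus strand): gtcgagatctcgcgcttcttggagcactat
The first 4 hold a tract, of 13, 10, 8 and 5 bases. Rps15, Rps19 and Rps2 hold none at the annotated base. Members past 2-fold in cFLIP KO against TNF KO epidermis are among both sets, with Rpl15 in the first and Rps15, Rps19 and Rps2 in the second. A window with or without a tract is a description of these letters only.

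As a group, the ribosomal protein genes did not shift in one direction. In cFLIP KO minus TNF KO the median log2 difference of the 72 members was 0.00, equal to the 0.00 of all named genes, with 32 members above 0, 30 below and 10 at 0. Their spread was somewhat wider than that of all genes, with an SD across genes of 0.78 against 0.68. Of the 72 members, 61 lay less than 2-fold apart (1 on the log2 scale) between cFLIP KO and TNF KO. At least 2-fold higher were 6 members (8.33%), where 3.87% of all named genes were, and at least 2-fold lower were 5 (6.94%), where 9.2% of all named genes were. Large subunit symbols had a median of 0.00 and small subunit symbols a median of -0.04. The subunit medians thus lay 0.04 apart (large minus small), and 4 other scalings were tried, by reference genes, by Actb, by a repeated quantile normalization and by subtracting a lowess trend of the difference on signal, of which the last 2 turned its sign, to -0.13 and -0.09. In such pooled tissue RNA, fewer cells of a type and less RNA per cell cannot be told apart.

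Between cFLIP KO/TNF KO and TNF KO epidermis 71 of the 72 members lay less than 2-fold apart as deposited. Their SD across genes was 0.27, against 0.22 for all named genes. The median of cFLIP KO/TNF KO minus TNF KO was again 0.00, the range was -1.18 to 0.75, and 20 of 72 members (27.8%) had exactly the same value on both arrays, against 52.4% of all named genes. No member was at least 2-fold higher (0.635% of all named genes were), and Rps15 alone was at least 2-fold lower (0.22% of all named genes were). Actb scaling put the median of the members and that of all named genes at -0.52, with 4 members at least 2-fold lower. In cFLIP KO minus cFLIP KO/TNF KO, 4 members were at least 2-fold higher (5.56%, against 3.3% of all named genes) and 3 were at least 2-fold lower (4.17%, against 8.14%). The first of these counts depends on the scaling, with 11 members higher under reference genes, 14 under Actb, 8 after the lowess trend and 10 after repeated quantile normalization, where 2, 1, 3 and 3 were lower. After the lowess trend 852 of the 24574 named genes were higher and 989 lower. Reference-gene and Actb scaling moved the median of all named genes up by 0.35 and 0.56. Shares of all named genes under scalings other than lowess are not given here. The 3 comparisons share arrays and are not independent of each other. The cFLIP KO array gave the highest of the 3 values for 28 members (38.9%, against 42.5% of all named genes) and the lowest for 26 (36.1%, against 28.5%). For 8 members (11.1%, against 20.0% of all named genes) the 3 arrays gave the same value, among them Rpl31 at 6.61, Rpl10 at 2.91 and Rps27l at 6.38. How such equal values arose was not tested, and neither they nor medians of 0.00 are read here as constant expression.

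**Figure D1:**
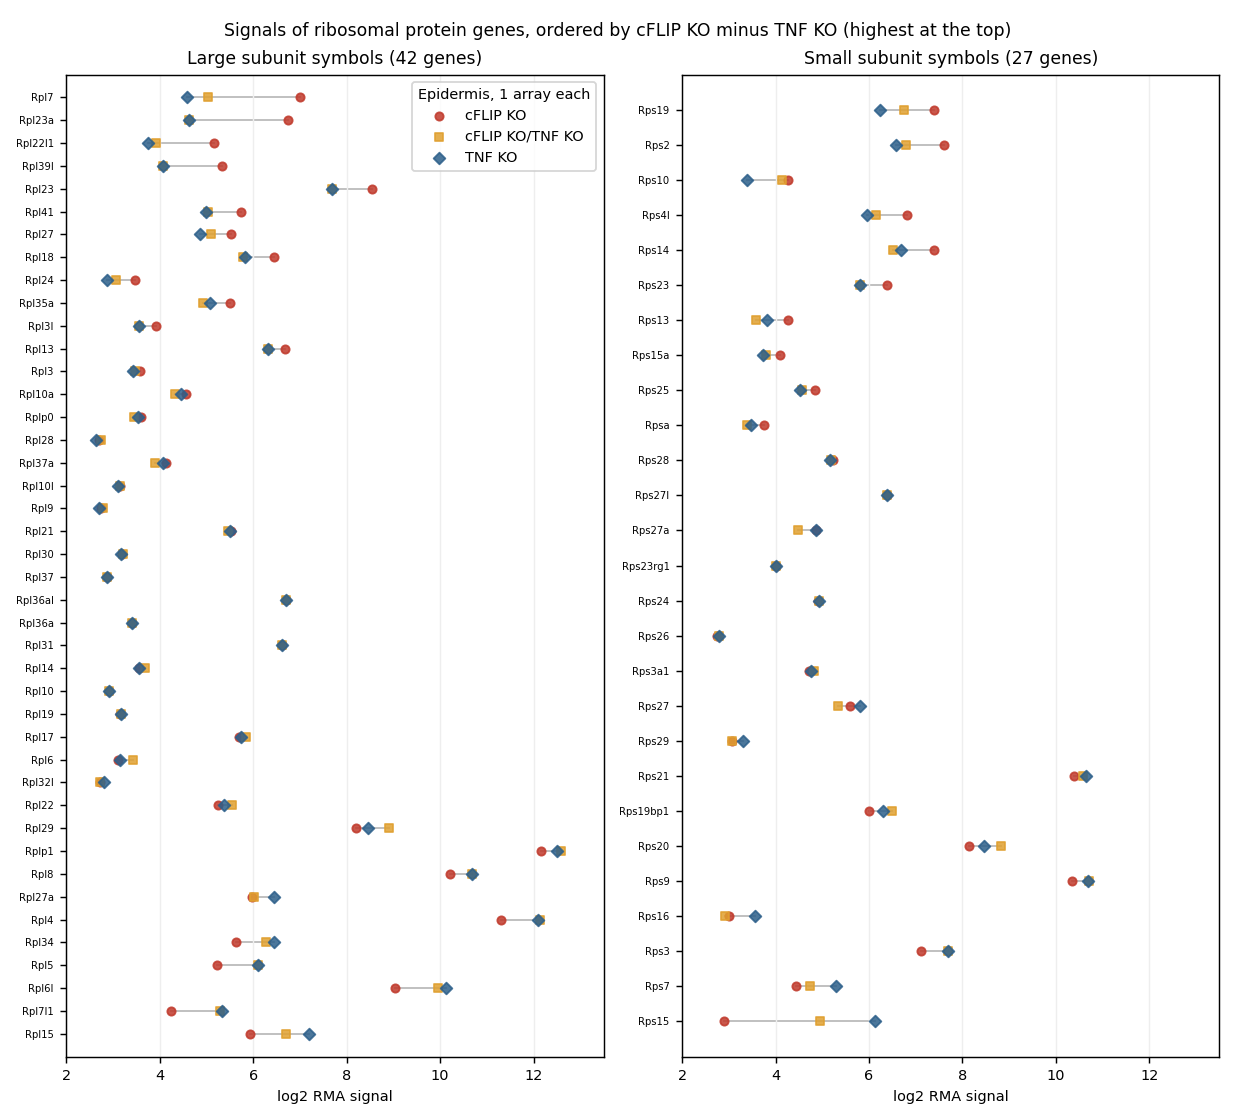
Log2 RMA signal (horizontal axis) of 42 large subunit symbols (left) and 27 small subunit symbols (right) on the cFLIP KO (circles), cFLIP KO/TNF KO (squares) and TNF KO (diamonds) arrays, 1 array each, with a grey line across each gene's range and TNF KO drawn on top where values coincide. Rpl7 and Rpl23a stand at the top of the large subunit with cFLIP KO highest, and Rps15 at the bottom of the small subunit with cFLIP KO lowest.

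Of the 35 core genes of the large subunit, 2 stood past 2-fold above TNF KO in cFLIP KO, 1 stood past 2-fold below, and the other 32 lay between -0.88 and 0.86. The widest differences were in Rpl7 and Rpl23a. Rpl7, a protein of the large subunit that binds its ribosomal RNA, had log2 signals of 7.00 in cFLIP KO, 5.04 in cFLIP KO/TNF KO and 4.58 in TNF KO epidermis. Its cFLIP KO value was 5.37-fold above TNF KO (2.42 on the log2 scale), and the other two arrays lay 0.47 apart. Rpl23a, which sits at the exit of the tunnel through which the new protein leaves and is a docking site for the signal recognition particle, had 6.74 in cFLIP KO, 4.62 in cFLIP KO/TNF KO and 4.62 in TNF KO epidermis. It was 4.34-fold higher in cFLIP KO than in either of the other arrays. The 4 other measured genes for proteins of the tunnel exit lay close to 0 in cFLIP KO minus TNF KO, at -0.13 for Rpl22, -0.04 for Rpl17, -0.02 for Rpl19 and 0.00 for Rpl31.

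Rpl15, a protein of the large subunit that is mutated in some human patients with Diamond-Blackfan anaemia, an inherited failure of red cell production, went the other way. It had 5.94 in cFLIP KO, 6.69 in cFLIP KO/TNF KO and 7.20 in TNF KO epidermis. The cFLIP KO array was thus the lowest, 2.39-fold below TNF KO, and cFLIP KO/TNF KO lay between them. This difference of -1.26 stayed below 0 under every other scaling tried but was under 2-fold after a repeated quantile normalization (-0.91) and after the lowess trend was subtracted (-0.95). Rpl5, which with Rpl11 and 5S RNA forms the particle that can bind and inhibit MDM2, had 5.22 in cFLIP KO, 6.11 in cFLIP KO/TNF KO and 6.11 in TNF KO epidermis. Its difference of -0.88 in cFLIP KO minus TNF KO did not reach 2-fold. The P stalk, which recruits the translation GTPases, was represented by Rplp0 and Rplp1. Rplp1 was the brightest member, at 12.17 in cFLIP KO, 12.59 in cFLIP KO/TNF KO and 12.49 in TNF KO epidermis. Rplp0 was dim, at 3.61 in cFLIP KO, 3.45 in cFLIP KO/TNF KO and 3.54 in TNF KO epidermis.

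Rps15, which lies in the head of the small subunit close to the decoding site, had the widest difference of all 72 members. Its log2 signal was 2.89 in cFLIP KO, 4.94 in cFLIP KO/TNF KO and 6.12 in TNF KO epidermis. The cFLIP KO signal was 9.34-fold lower than TNF KO (-3.22) and 4.13-fold lower than cFLIP KO/TNF KO (-2.04). The cFLIP KO/TNF KO signal was in turn 2.26-fold lower than TNF KO (-1.18). These 3 differences stayed past 2-fold in the same direction under all 4 other scalings. The cFLIP KO value lay below 4.25, the median of all values on the 3 arrays, so the size of this fold rests on a dim signal.

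Rps19, the gene most often mutated in Diamond-Blackfan anaemia, had 7.38 in cFLIP KO, 6.74 in cFLIP KO/TNF KO and 6.24 in TNF KO epidermis, with cFLIP KO 2.21-fold above TNF KO (1.14). Rps2, which lines the channel where mRNA enters, had 7.60 in cFLIP KO, 6.79 in cFLIP KO/TNF KO and 6.57 in TNF KO epidermis and stood 2.04-fold above TNF KO in the cFLIP KO array (1.03). Both were highest in cFLIP KO and, as deposited, lowest in TNF KO, whereas Actb scaling put cFLIP KO/TNF KO below TNF KO by -0.02 for Rps19 and -0.31 for Rps2. Rps10, at the mRNA entry side of the small subunit head, had 4.27 in cFLIP KO, 4.14 in cFLIP KO/TNF KO and 3.38 in TNF KO epidermis. It had the highest difference of any member in cFLIP KO/TNF KO minus TNF KO (0.75), beside 0.88 in cFLIP KO minus TNF KO, and as deposited neither reached 2-fold. Actb scaling put the first at 0.23, and reference gene scaling put the second at 1.11, past 2-fold. The cFLIP KO/TNF KO and TNF KO values of Rps10 lay below the median of all values (4.25).

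Of the 25 core genes of the small subunit, 2 were past 2-fold above TNF KO in cFLIP KO, 2 past 2-fold below, and the other 21 lay between -0.85 and 0.88. The RNA signals of genes for proteins of the head, the mRNA entry and the decoding centre of the small subunit thus went in different directions. Of 8 measured, 4 lay above 0 and 4 below in cFLIP KO minus TNF KO, with Rps19 and Rps2 past 2-fold above, Rps15 past 2-fold below and a median of 0.17. Of the 18 listed genes mutated in human Diamond-Blackfan anaemia, 14 were measured. Their median in cFLIP KO minus TNF KO was -0.02, 6 lay above 0 and 7 below, and Rps19 and Rpl15 were past 2-fold in opposite directions. Rps7, which can also bind MDM2, had 4.44 in cFLIP KO, 4.74 in cFLIP KO/TNF KO and 5.29 in TNF KO epidermis, below TNF KO on both cFLIP-deficient arrays, as deposited by under 2-fold (-0.85 for cFLIP KO, -0.55 for cFLIP KO/TNF KO). Repeated quantile normalization put the cFLIP KO difference at -1.06, and Actb scaling put the cFLIP KO/TNF KO difference at -1.07, both past 2-fold. Rps16, a small subunit protein picked here for its values, was likewise lower in both, at 3.00 in cFLIP KO, 2.91 in cFLIP KO/TNF KO and 3.56 in TNF KO epidermis, all below the median of all values (4.25). The 2 measured genes whose product is made as a fusion with ubiquitin or a ubiquitin-like protein had equal values in cFLIP KO and TNF KO. So did 23.1% of all named genes. Rps27a had 4.86 in cFLIP KO, 4.48 in cFLIP KO/TNF KO and 4.86 in TNF KO epidermis, and Fau, which encodes Rps30 and is not a member by symbol, had 5.10 on all 3 arrays.

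Of the 10 paralogs or like genes, 4 were among the 11 members past 2-fold in cFLIP KO minus TNF KO, Rpl6l among them. The list of 8 measured paralogs, which leaves out Rpl6l, had 2 past 2-fold above TNF KO and 1 below. Among the 60 core genes 4 stood above and 3 below by that measure, and for all named genes the shares were 3.87% and 9.2%. Whether paralogs differ from core genes in this was not tested. Rpl22l1, the paralog of Rpl22, had 5.15 in cFLIP KO, 3.92 in cFLIP KO/TNF KO and 3.75 in TNF KO epidermis, with cFLIP KO 2.64-fold above TNF KO (1.40), while Rpl22 itself differed by -0.13. Rpl39l, a paralog of Rpl39 known for its expression in male germ cells, had 5.33 in cFLIP KO, 4.08 in cFLIP KO/TNF KO and 4.08 in TNF KO epidermis, 2.37-fold higher in cFLIP KO (1.25). Rpl7l1, a paralog of Rpl7, had 4.24 in cFLIP KO, 5.29 in cFLIP KO/TNF KO and 5.33 in TNF KO epidermis, with cFLIP KO 2.13-fold below TNF KO (-1.09), where Rpl7 was 5.37-fold higher. The lower values of Rpl22l1 and Rpl39l and the cFLIP KO value of Rpl7l1 lay below the median of all values (4.25), so the sizes of these folds rest on dim signals too. Under scaling by the reference genes Rpl7l1 differed by -0.87 and so fell short of 2-fold. Rpl6l had 9.03 in cFLIP KO, 9.95 in cFLIP KO/TNF KO and 10.12 in TNF KO epidermis (-1.09), and was under 2-fold after the lowess trend was subtracted (-0.34), with the reference genes as scale (-0.86) and when quantile normalization was repeated (-0.40). Rps4l, at 6.81 in cFLIP KO, 6.15 in cFLIP KO/TNF KO and 5.95 in TNF KO epidermis, Rpl3l, a paralog of Rpl3 expressed mainly in muscle (0.37 in cFLIP KO minus TNF KO), and Rpl10l, a germ cell paralog of Rpl10 (0.04), stayed under 2-fold, and Rpl36al and Rps27l had equal values on all arrays.

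The direction of a difference went with the signal on the cFLIP KO array. That array had an SD across genes of 1.78, against 2.04 in cFLIP KO/TNF KO and 2.06 in TNF KO, and in the brightest decile of named genes (1 of 10 equal groups by mean signal) 84.7% of 2458 genes lay below their TNF KO value in cFLIP KO, with a median of -0.80. The 10 members in that decile had a median of -0.32, 9 of them below 0, but after the lowess trend was subtracted their median was 0.42 with 8 above 0, so their direction depends on the scaling. Rpl4, at 11.29 in cFLIP KO, 12.14 in cFLIP KO/TNF KO and 12.09 in TNF KO epidermis, differed by -0.80 in cFLIP KO minus TNF KO and by -0.01 after the trend was subtracted. Rplp1 differed by -0.33 and by 0.47, Rps9 by -0.35 and by 0.42, and Rps21 by -0.26 and by 0.51. Only Rpl23, a large subunit protein that can bind MDM2, was higher in cFLIP KO among these 10 as deposited, at 8.54 in cFLIP KO, 7.69 in cFLIP KO/TNF KO and 7.69 in TNF KO epidermis (0.86). In the next decile the 5 members had a median of 0.70, against -0.58 for all genes there. Of the 41 members that differed by at least 0.25 in cFLIP KO minus TNF KO, 7 changed sign under at least 1 other scaling, none of them among the 11 past 2-fold.

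**Figure D2:**
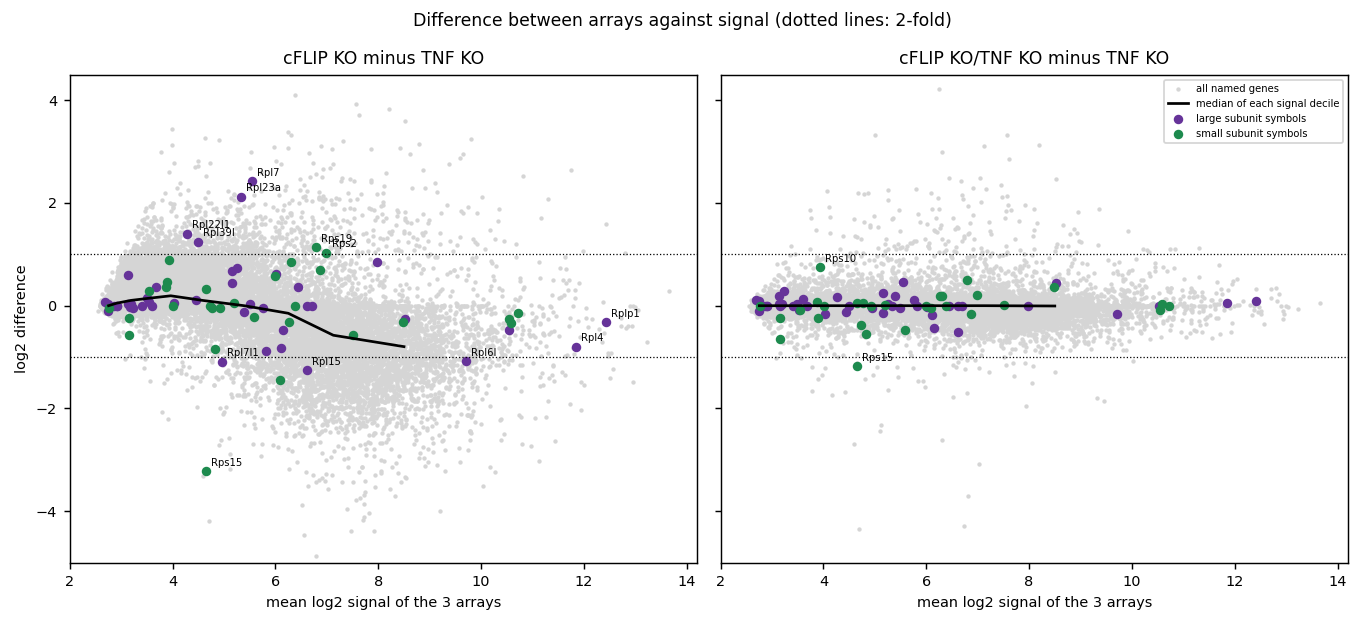
Log2 difference (vertical axis) against the mean log2 signal of the 3 arrays (horizontal axis) for cFLIP KO minus TNF KO (left) and cFLIP KO/TNF KO minus TNF KO (right). Grey points are all named genes, the black line joins the medians of the 10 signal deciles, coloured points are ribosomal protein genes, and dotted lines mark 2-fold. On the left the line falls to -0.80 in the brightest decile, where the 10 members have a median of -0.32, and on the right it stays near 0 and Rps15 is the only member beyond a dotted line.

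Low signals limit what can be said of many members. Although ribosomal protein mRNAs are abundant in dividing cells, 23 members lay below the median of all values (4.25) on all 3 arrays and 43 lay above it on all 3. The 5 dimmest were Rpl28, Rpl9, Rpl32l, Rps26 and Rpl37, all between 2.63 and 2.86 on the 3 arrays. Signals of different probe sets do not rank transcripts, and a dim member near the floor cannot show a lower level. The differences of the 25 members in the 5 dimmest deciles ran from -0.57 to 0.88 in cFLIP KO minus TNF KO. How many of all named genes in these deciles were past 2-fold was not counted.

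Processed pseudogenes gave a further measured limit. RefSeq names at least 1 pseudogene for 48 of the 72 members, and whether probes of a member also bind its copies was not tested. The 10 measured rows of ribosomal pseudogenes had a median of -0.14 in cFLIP KO minus TNF KO, of which 1 was past 2-fold above and 2 past 2-fold below, and some ran opposite to the gene they derive from. Rps19-ps3 had 6.56 in cFLIP KO, 7.65 in cFLIP KO/TNF KO and 7.42 in TNF KO epidermis (-0.87 in cFLIP KO minus TNF KO), where Rps19 differed by 1.14. Rps15a-ps5 differed by -2.12 where Rps15a differed by 0.36, and Rps27a-ps3 by -1.47 where Rps27a had equal values on both arrays.

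The snoRNA genes inside ribosomal protein genes were measured by rows of their own. RefSeq placed 22 measured snoRNA genes within 16 members. In cFLIP KO minus TNF KO these 22 had a median of 0.31, with 6 at least 2-fold higher and 0 lower, while the median of their 16 host genes was 0.00 with 2 at least 2-fold higher and 1 lower. The 115 measured snoRNA genes of the whole array, which include these 22, had a median of 0.54, with 32 at least 2-fold higher and 1 lower. The full set thus also had a median above 0, and snoRNA genes outside the members were not summarized apart. Within Rps3, a protein of the mRNA entry site with 7.12 in cFLIP KO, 7.70 in cFLIP KO/TNF KO and 7.70 in TNF KO epidermis, Snord15a had 9.95 in cFLIP KO, 8.91 in cFLIP KO/TNF KO and 8.76 in TNF KO epidermis (1.20). Host and snoRNA were both past 2-fold in the same direction for Rps2 with Snora64 (1.03 and 1.62) and for Rpl23a with Snord42b (1.09 for the snoRNA, 2.12 for the host). Other snoRNA genes of these hosts were not, with Snora78 in Rps2 at 6.54 and Snord4a in Rpl23a at 2.95 on all arrays. Snord42a in Rpl23a differed by 0.20. Snora3 in Rpl27a (1.20) and Snora62 in Rpsa (1.10) were also past 2-fold, with host differences of -0.48 and 0.28. In cFLIP KO/TNF KO minus TNF KO none of the 22 reached 2-fold, and their median was 0.02. The snoRNA genes were picked by their place in the members and named for their values.

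**Figure D3:**
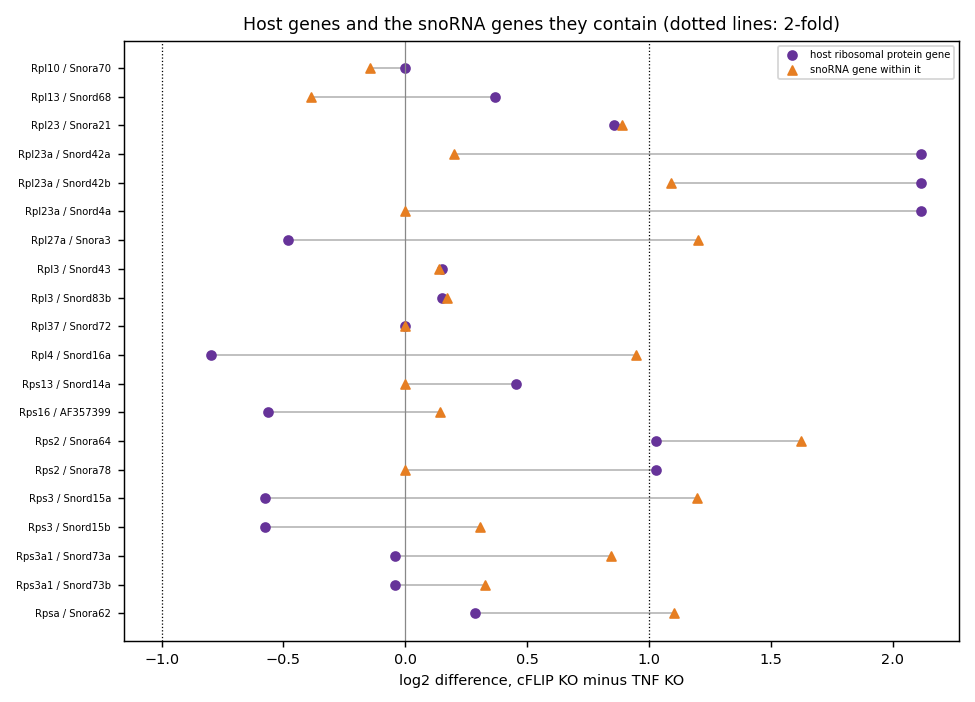
Log2 difference in cFLIP KO minus TNF KO (horizontal axis) of 14 host ribosomal protein genes (circles) and 20 snoRNA genes within them (triangles), joined by a grey line for each pair, with dotted lines at 2-fold. Of the triangles 5 lie beyond the right dotted line and none beyond the left one, whereas most circles lie between the lines.

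Other genes of protein synthesis were set beside the ribosomal protein genes from 4 lists. The mitochondrial ribosome was gathered by symbols that begin with Mrpl or Mrps, and the factors by symbols that begin with Eif or Eef. The other lists were chosen for function. The factor list thus also holds genes that are not factors themselves, such as Eef2k and Eif2ak1. It shares genes such as Eef2 and Eif3e with the list of TOP genes. The 76 measured genes of the mitochondrial ribosome had a median of -0.07 in cFLIP KO minus TNF KO, 0 at least 2-fold higher and 4 lower, with Mrpl32 furthest from 0 at 3.36 in cFLIP KO, 5.33 in cFLIP KO/TNF KO and 4.74 in TNF KO epidermis. The 67 measured genes listed by symbol as initiation and elongation factors had a median of -0.53, with 0 at least 2-fold higher and 16 lower, against 9.2% of all named genes lower. Eef2k, the kinase that inhibits elongation factor eEF2, had 5.41 in cFLIP KO, 7.46 in cFLIP KO/TNF KO and 7.49 in TNF KO epidermis, and Eif2ak1, a kinase of eIF2α, had 5.29 in cFLIP KO, 7.23 in cFLIP KO/TNF KO and 7.23 in TNF KO epidermis. The 48 measured genes of RNA polymerase I and ribosomal RNA processing had a median of -0.45, with 0 at least 2-fold higher and 5 lower, of which Fbl, the methyltransferase fibrillarin, had 5.89 in cFLIP KO, 7.60 in cFLIP KO/TNF KO and 7.07 in TNF KO epidermis. The 19 measured other genes with known TOP mRNAs had a median of -0.46, with 0 at least 2-fold higher and 4 lower, all subunits of eIF3 (Eif3e, Eif3f, Eif3h and Eif3l). After the lowess trend was subtracted these 4 were no longer past 2-fold, and the counts became 2 higher and 0 lower for the TOP genes, 2 higher and 5 lower for the factors, 1 higher and 5 lower for the mitochondrial ribosome and 0 higher and 1 lower for RNA polymerase I and ribosomal RNA processing. Of all 24574 named genes 960 were higher and 1216 lower by that measure. In cFLIP KO/TNF KO minus TNF KO all 4 lists had a median of 0.00, where 52.4% of all named genes had equal values on both arrays. These lists are brighter than the members, with median signals of 6.48 to 7.73 against 5.16, and after the lowess trend was subtracted their medians in cFLIP KO minus TNF KO lay between -0.09 and 0.02, beside 0.01 for the members. Whether any list differed from the members was not tested.

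**Figure D4:**
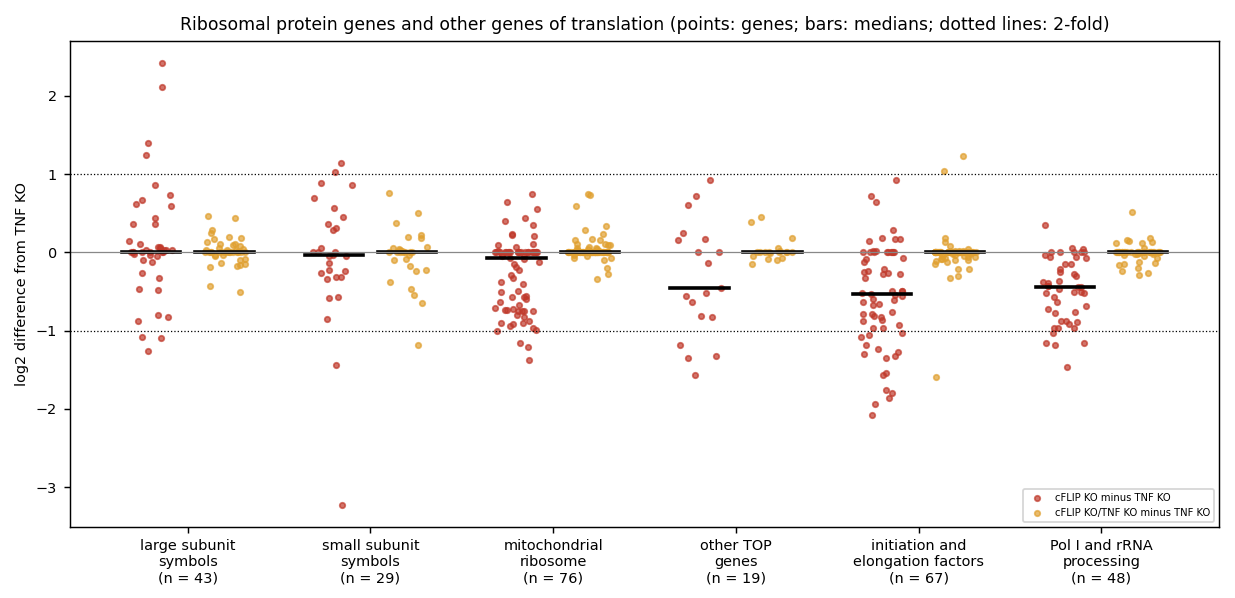
Log2 difference from TNF KO (vertical axis) of cFLIP KO (left of each pair) and cFLIP KO/TNF KO (right of each pair) for genes of 6 groups, with a point per gene, black bars at medians and dotted lines at 2-fold. The ribosomal protein genes spread to either side of 0 in cFLIP KO, with medians of 0.00 and -0.04, and the other translation groups have medians of -0.07 to -0.53, while all groups have medians of 0.00 in cFLIP KO/TNF KO.

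The labels and the tissue were checked on the same arrays. Cflar, the gene of cFLIP, had 6.29 in cFLIP KO, 6.53 in cFLIP KO/TNF KO and 7.00 in TNF KO epidermis, and Tnf had 5.79 in cFLIP KO, 5.21 in cFLIP KO/TNF KO and 5.11 in TNF KO epidermis. The sources used here do not say whether their probes lie within the deleted exons, so these values check the labels weakly. All 7 basal and all 10 suprabasal keratinocyte markers lay above the median of all values on every array. Their summed linear signal was 20595 in cFLIP KO, 45163 in cFLIP KO/TNF KO and 53292 in TNF KO epidermis for the suprabasal markers, and 16536 in cFLIP KO, 20510 in cFLIP KO/TNF KO and 19919 in TNF KO epidermis for the basal ones. The 11 leukocyte markers summed to 4488 in cFLIP KO, 2748 in cFLIP KO/TNF KO and 1890 in TNF KO epidermis, but the brightest, S100a8 and S100a9, carried most of that sum (cFLIP KO log2 signals of 10.99 and 10.75, against 9.52 and 8.83 in TNF KO epidermis). In cFLIP KO minus TNF KO the 11 had a median of 0.00, with 5 above 0, 3 below (Cd3g at -1.96, Cd207 at -0.65 and Cd3e at -0.41) and 3 at 0. The 14 markers of fibroblasts, vessels, muscle and fat summed to 8556 in cFLIP KO, 9541 in cFLIP KO/TNF KO and 7379 in TNF KO epidermis, and at most 1 marker of the leukocyte list and of this one lay below the median of all values on an array. In cFLIP KO/TNF KO minus TNF KO 12 of these 14 lay above 0 and 0 below. There 2 were at least 2-fold higher, against 0.635% of all named genes. In cFLIP KO minus cFLIP KO/TNF KO 4 lay above 0 and 7 below. There 5 were at least 2-fold lower, against 8.14% of all named genes. In cFLIP KO minus TNF KO 8 lay above 0 and 5 below. The part of these shifts in the values of Rps15, Rpl7 and the other members was not tested.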

How the data were processed

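Epidermal RNA pooled per genotype was measured on 3 arrays, grouped by the genotype label. The authors deposited log2 values, and their methods describe quantile normalization and RMA background correction on a custom ENTREZ-based CDF (V. 22). The deposited arrays nevertheless differ in distribution, with SDs of 1.78 in cFLIP KO, 2.04 in cFLIP KO/TNF KO and 2.06 in TNF KO. How this difference arose was not tested. The RMA version and the base of the logarithm are not given in the sources used here. Base 2 was read from the range of the values, 2.48 to 13.82. The number of arrays limits the precision. The analysis of variance of the methods needs replicates and was not run on 3 single arrays, so no p-value was computed.

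Symbols came from the platform annotation by ENTREZ identifier, and for 559 rows (5 members among them) from RefSeq. Of 24973 rows, 399 had no symbol and were left out. The arrays were subtracted from each other in 3 pairs for each gene, and genes at least 2-fold apart were counted among members and among all named genes. No filter on dim genes was applied. Members, lists and alternatives were chosen with earlier results of these data known. Rpl24 was taken out of the tunnel exit list after values were seen, because it does not lie there.

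Named were members past 2-fold, the 6 nearest 0 in cFLIP KO minus TNF KO (here out of 10 tied at 0), the 5 brightest and 5 dimmest, members of the lists of the 5S particle, P stalk, ubiquitin fusions and paralogs, the 4 furthest from 0 of each other list, and Cflar and Tnf. Other genes named, such as Rpl23, Rps3, Rps16 and the snoRNA genes, were picked after their values were seen. Some members enter the counts but are not reported here by name.

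The alternatives were scaling by the mean of reference genes (8 of 10 listed were measured) or by Actb, a lowess trend on signal (share 0.3, 3 iterations), a repeated quantile normalization, leaving out dim members, core members only, thresholds of 1.5-fold and 3-fold, and the mean. Platform symbols alone were added after the data were seen. The steps were tested on simulated data. Software was Python 3.11.15, statsmodels 0.14.6, numpy 2.4.6, pandas 2.3.3 and matplotlib 3.10.9.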

Additional observations from a re-analysis of the deposited data

How the results depend on the processing

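Of 102 values recomputed under an alternative, 71 kept to the deposited value (within 0.1 on the log2 scale, or within 1.5 times for counts) and 31 moved. Reference-gene scaling moved the median of all named genes by 0.22 in cFLIP KO minus TNF KO, -0.12 in cFLIP KO/TNF KO minus TNF KO and 0.35 in cFLIP KO minus cFLIP KO/TNF KO, and the members' median, 0 as deposited, became 0.22, -0.12 and 0.35 with it. Actb scaling moved the median of all genes by -0.52 in cFLIP KO/TNF KO minus TNF KO and 0.56 in cFLIP KO minus cFLIP KO/TNF KO, and the members' median became -0.52 and 0.56. The large minus small subunit median in cFLIP KO minus TNF KO, 0.04 as deposited, turned its sign to -0.09 after the lowess trend and -0.13 after repeated quantile normalization, and was 0.17 with means. In cFLIP KO minus cFLIP KO/TNF KO, 0 as deposited, it was -0.11 after the lowess trend and 0.1 with means. Members at least 2-fold lower in cFLIP KO minus TNF KO numbered 5 as deposited, and 3 with reference genes, 3 after the lowess trend and 3 among core members, with 9 at 1.5-fold and 1 at 3-fold. Those higher numbered 6, with 14 at 1.5-fold and 2 at 3-fold. In cFLIP KO/TNF KO minus TNF KO, 1 member was lower, with 4 under Actb scaling, 2 at 1.5-fold and 0 at 3-fold, and 0 were higher, with 1 at 1.5-fold. In cFLIP KO minus cFLIP KO/TNF KO, 3 were lower, with 1 under Actb scaling, 10 at 1.5-fold and 1 at 3-fold. There 4 were higher, with 11 under reference genes, 14 under Actb, 8 after the lowess trend, 10 after repeated quantile normalization, 2 among core members, 12 at 1.5-fold and 2 at 3-fold. Another threshold or fewer members change a count by construction, and the cause of the other moves was not tested. Leaving out dim members kept 49 of them, and platform symbols alone, chosen after seeing the data, kept 67. Of the 11 members past 2-fold in cFLIP KO minus TNF KO, 8 were so under all 4 other scalings, among them Rpl7, Rpl23a, Rpl22l1, Rpl39l, Rps19, Rps2 and Rps15, and Rpl7l1, Rpl15 and Rpl6l were not. No paired analysis was possible because each genotype has 1 array. Signals near the floor limit what dim members can show.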

Other observations

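Other genes that most cells express strongly were also dim on these arrays. Eef1a1, which brings aminoacyl-tRNAs to the ribosome, had 3.08 in cFLIP KO, 3.78 in cFLIP KO/TNF KO and 3.60 in TNF KO epidermis, while Eef2 had 11.27 in cFLIP KO, 12.02 in cFLIP KO/TNF KO and 12.09 in TNF KO epidermis. Tpt1, a further gene with a known TOP mRNA, had 3.39 in cFLIP KO, 3.17 in cFLIP KO/TNF KO and 2.78 in TNF KO epidermis, and Naca, of the nascent polypeptide-associated complex, had 3.26 on all 3 arrays. Rack1, which binds the small subunit, had 10.94 in cFLIP KO, 11.50 in cFLIP KO/TNF KO and 11.50 in TNF KO epidermis. The probes behind these rows were not examined here, and these genes were picked after their values were seen.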
